A study of Mus musculus with 32 samples.

Results

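Interferon-stimulated genes are the genes that cells switch on when interferon binds its receptor, and 33 of them were followed here in the mouse brain after a stroke model. They were chosen as a fixed list of symbols, and their probes were found where the gene name on the array, ignoring case, was one of the symbols. Of the 33 genes, 25 were found by name, on 40 of the 25697 probes, and 7 more were found through their RefSeq accession under an older name, on 10 probes. The latter were Isg15, Irf9, Rsad2, Ifi44, Gbp3, Parp9 and Xaf1, and they are counted apart. Dtx3l was found neither by name nor by accession among the probes, and only its promoter window was read. A gene entered the tests if 4 or more of the 32 arrays detected one of its probes (detection p under 0.01), which 13 of the 25 genes found by name and 4 of the 7 found by accession did, 17 of 32 in all.

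RNA came from the right cortex and the right striatum, the labelled infarct area, of mice labelled Gpx1-/- and strain C57/Bl6, aged 8 to 10 weeks. The sham group had the anaesthetic and neck incision alone, and the other groups had the middle cerebral artery blocked with a suture for 2 h, with reperfusion for 2, 8 or 24 h after it. There were 8 groups of 4 arrays, 32 in all. All groups, sham included, carry the Gpx1-/- label, which names loss of the antioxidant enzyme glutathione peroxidase 1, and no wild-type array was analysed here. The growth protocol instead speaks of male wild-type mice, while titles, genotype and treatment text name the knockout. The labels do not say whether the cortex and striatum arrays of one number came from the same animal, nor whether RNA was pooled, so p-values measure the spread between these samples.

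Interferons are secreted proteins that a cell releases when its sensors meet viral or misplaced nucleic acid. Type I interferon binds its receptor on the same or a neighbouring cell, and the kinases Jak1 and Tyk2 then activate Stat proteins, among them Stat2, which joins Irf9 in a complex that binds the interferon-stimulated response element in the promoters of its targets. The products of these targets block steps of viral replication, mark proteins with Isg15, or, as Usp18 does, turn the receptor off again; in the brain, microglia, endothelium and astrocytes are known to respond.

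The median raw signal per array lay between 60.1 and 92.4, and 10701 to 11935 probes were detected on an array (41.6% to 46.4%). All values are log2 signals after background correction and quantile normalisation. The probe for Gpx1, the gene named in the genotype, was detected on all arrays of each group, at group means between 8.85 and 9.74, and it was higher than sham at 8 h in the cortex by 0.88 ± 0.19 (adjusted p = 0.00241). Whether that probe lies in a deleted part of the gene is not given in the sources used here. The regions differed in their marker genes as labelled, with a summed signal of 9 cortical neuron markers of 10242 to 12974 in cortex sham and 1942 to 2927 in striatum sham. In what follows a gene rose or fell only where its adjusted p was under 0.05. That p came from a linear model over all 8 groups of 4 arrays in limma, with Benjamini-Hochberg adjustment across the 9475 genes tested. Changes are differences of mean log2 signals, and the value after ± is the standard error of that model.

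4 arrays stood apart for these genes, and counts of calls and medians that rest on them are given with and without them, as are the single calls that they move. Counts of genes without overlap, or with a larger change in the striatum, are given with every array only. Cortex 24 h replicate 1 was the lowest array of its group for 16 of the 17 measured genes. Its median was -0.23 relative to the mean of cortex sham, against 1.28, 1.46 and 1.35 on the other arrays of the group. Cortex 8 h replicate 4 was lowest for 13 genes, with a median of -0.25 against 0.54 to 0.81. In the striatum at 8 h, replicate 4 was lowest for 14 genes with a median of -0.19, and replicate 3 was highest for 14 with 1.05. No fixed rule set the number at 4, and other arrays came near. Striatum 24 h replicate 2 was highest for 12 genes. Striatum 2 h replicate 2 was lowest for 11, with a median of -0.01 against 0.29 to 0.33 on the others of its group. The same medians over all genes tested lay between -0.06 and 0.01 on the 32 arrays. The cause of these differences between arrays was not tested.

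**Figure D1:**
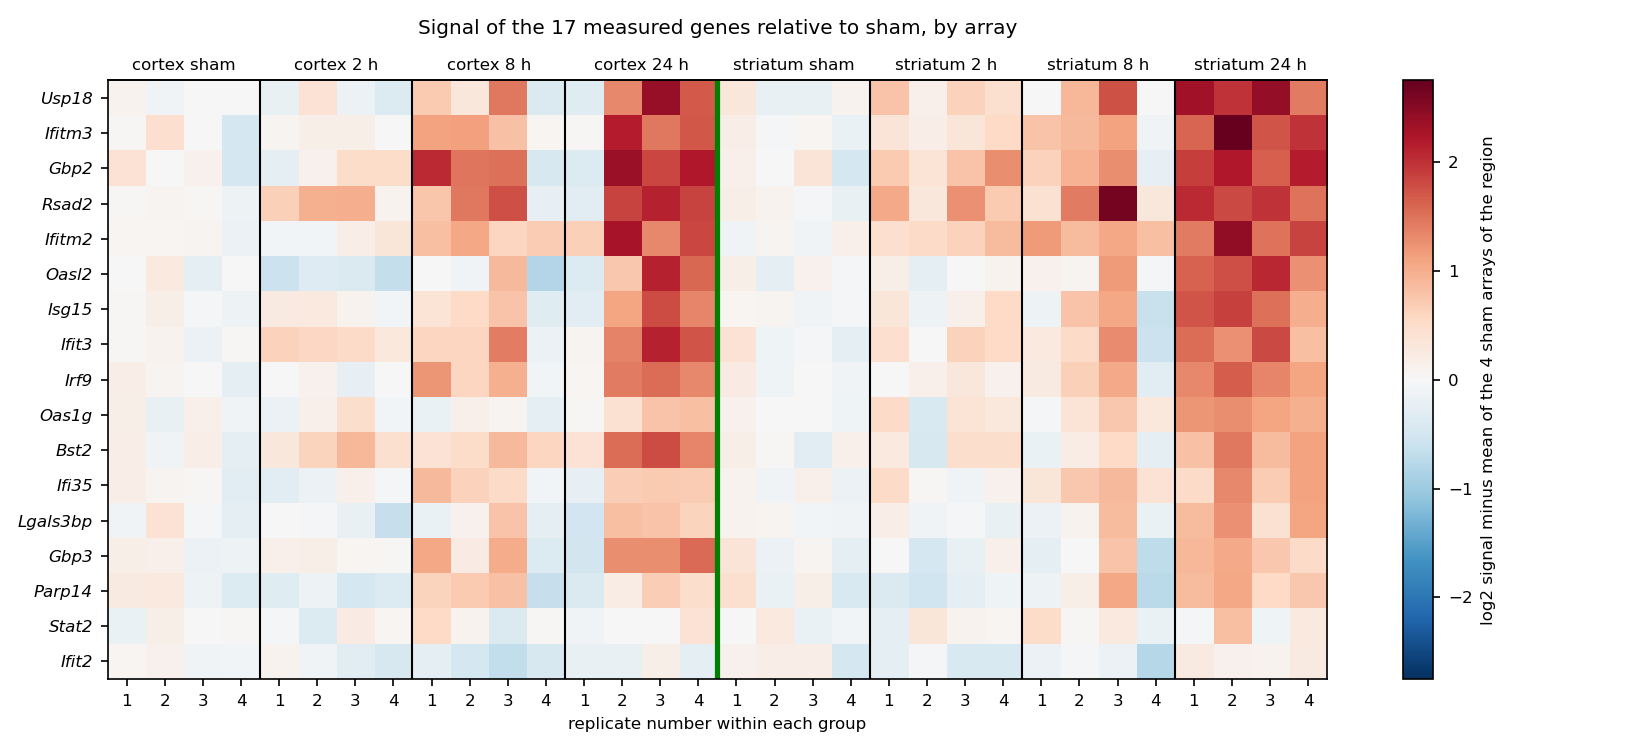
Heat map of the 17 measured genes (rows) on the 32 arrays (columns, by group and replicate number); colour is the log2 signal minus that region's mean over its 4 sham arrays. Cortex 24 h replicate 1 and replicate 4 of both 8 h groups look like sham arrays, while all 4 striatum 24 h arrays are raised for most genes.

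Promoter sequence was available for 27 of the 33 genes in the RefSeq table (build GRCm38.p6), as 32 windows of 300 bases that run from 250 bases before the transcript start to 50 after it. The core of the interferon-stimulated response element was searched on both strands as GAAA, any 2 bases and GAAA, and was present in 14 of the 27 genes (51.9%), against 3.99% of the 27025 genes in the table. Per window this was 14 of 32 (43.8%) against 3.44% of 32851. The gamma-activated site, searched as TTCNNNGAA, which reads the same on both strands, was present in 6 of 27 genes (22.2%) against 9.55% of all genes. Matches of both motifs overlapped in Bst2 and in Ifitm3. A match describes letters in the window and no more. 5 windows are shown because they set genes that rose at 24 h beside one that did not. Isg15 holds 3 overlapping matches, Rsad2 1, Ifit3 2 and Gbp2 1, and all of these rose; Stat2 holds 1 and did not pass. Each is read 5′ to 3′ along the gene, with the matches in capitals.
Isg15, chr4:156200769-156201068, minus strand: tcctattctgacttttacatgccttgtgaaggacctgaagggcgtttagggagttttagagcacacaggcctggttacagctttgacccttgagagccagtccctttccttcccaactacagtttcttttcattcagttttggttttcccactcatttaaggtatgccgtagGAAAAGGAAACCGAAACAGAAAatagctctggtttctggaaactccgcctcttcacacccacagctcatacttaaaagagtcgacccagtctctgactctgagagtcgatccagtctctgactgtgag
Rsad2, chr12:26456403-26456702, minus strand: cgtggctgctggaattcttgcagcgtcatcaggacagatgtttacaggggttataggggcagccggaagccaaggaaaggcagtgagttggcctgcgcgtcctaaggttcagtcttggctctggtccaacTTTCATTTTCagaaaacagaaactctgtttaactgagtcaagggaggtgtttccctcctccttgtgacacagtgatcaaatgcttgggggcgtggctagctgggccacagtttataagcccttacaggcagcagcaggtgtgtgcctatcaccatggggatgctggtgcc
Ifit3, chr19:34583279-34583578, plus strand: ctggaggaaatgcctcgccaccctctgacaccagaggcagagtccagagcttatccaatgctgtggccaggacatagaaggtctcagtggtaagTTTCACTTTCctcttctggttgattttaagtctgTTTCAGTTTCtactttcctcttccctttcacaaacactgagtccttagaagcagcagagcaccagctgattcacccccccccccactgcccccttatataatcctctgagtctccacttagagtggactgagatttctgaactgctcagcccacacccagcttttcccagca
Gbp2, chr3:142620413-142620712, plus strand: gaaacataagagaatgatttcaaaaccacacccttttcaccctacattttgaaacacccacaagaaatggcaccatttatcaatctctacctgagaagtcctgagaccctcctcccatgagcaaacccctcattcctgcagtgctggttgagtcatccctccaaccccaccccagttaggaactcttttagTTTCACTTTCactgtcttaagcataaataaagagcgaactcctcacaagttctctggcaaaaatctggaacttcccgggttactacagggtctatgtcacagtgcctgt
Stat2, chr10:128270248-128270547, plus strand: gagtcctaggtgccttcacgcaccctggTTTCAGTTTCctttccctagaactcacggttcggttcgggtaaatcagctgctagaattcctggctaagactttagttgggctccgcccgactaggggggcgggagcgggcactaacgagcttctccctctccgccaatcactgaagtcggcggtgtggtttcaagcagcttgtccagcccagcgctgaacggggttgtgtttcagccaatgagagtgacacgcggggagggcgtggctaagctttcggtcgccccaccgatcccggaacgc
Of the 13 genes with a window that rose at 24 h in either region, 9 held the response element core, among them also Ifitm2, Ifitm3, Bst2, Gbp3 and Oas1g. Irf9, Oasl2, Ifi35 and Lgals3bp rose and had no match in their windows. Of the genes that were not past the detection filter or not found, 4 of 12 with a window held a match (Ifit1, Oas1a, Ifih1 and Ddx58). The table held no window for Oas2, Usp18, Parp9, Parp14, Mx1 and Mx2.

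None of the measured genes passed the test 2 h after reperfusion, and most were raised in both regions at 24 h. At 2 h 2.21% of all genes rose and 2.45% fell in the cortex, and 3.49% rose and 2.81% fell in the striatum. At 8 h 11.8% of the 17 passed in the cortex, where 9.58% of all genes rose and 10.6% fell. In the striatum at 8 h 17.6% of the 17 passed, where 12.4% of all genes rose and 12.8% fell. In the striatum at 24 h, 11 of the 13 genes found by name and 3 of the 4 found by accession rose, and 0 fell; over all genes tested 14.7% rose and 16.2% fell. The median change of the 17 genes was 1.36 on the log2 scale, against a median near 0 over all genes, and the 24 h arrays lay clear of the sham arrays for 15 of the 17, a separation that 28.0% of all genes showed. Usp18, Rsad2, Oas1g and Ifi35, which are counted among the genes that rose here, were detected on no sham array of either region. They entered the tests only through reperfusion arrays and could hardly be called lower than sham, so their rise adds little to these counts. In the cortex at 24 h, 8 of the 13 and all 4 of the 4 rose and 0 fell, where 15.7% of all genes rose and 17.6% fell. The median change was 1.02, but the 24 h and sham arrays were apart for only 2 of the 17 genes, Ifitm2 and Bst2, against 29.5% of all genes. For Usp18, Irf9, Ifit3, Isg15, Rsad2, Oasl2, Ifitm3 and Gbp2 the overlap came from cortex 24 h replicate 1 alone. The other arrays of that group lay above all cortex sham arrays for these genes. The share of all genes apart without that array was not computed. Bst2, Ifit3, Ifitm2, Ifitm3 and Irf9 passed in the cortex under all 16 alternatives tried, and the other 7 cortex calls were each lost under 2 or more; in the striatum 13 of the 14 calls held under all, with Parp14 the exception. Leaving out cortex 24 h replicate 1 brought the count of the genes found by name to 10 and the median to 1.42. Without cortex 24 h replicate 3 the count was 5, and without replicate 4 it was 4. The count of the 4 genes found by accession was 1 without any one of replicates 2, 3 and 4. Without cortex 24 h replicate 1 the change was 1.41 for Isg15, 1.48 for Oasl2, 1.37 for Gbp3, 1.73 for Ifit3, 1.78 for Ifitm3, 1.42 for Irf9, 1.81 for Ifitm2, 1.56 for Bst2 and 0.68 for Oas1g, and these were above the changes with every array that are given below. In bulk tissue, more cells of a type that expresses a gene and more RNA of that gene per cell cannot be told apart. Within a region the arrays of one replicate number share an array code, and within each code the median change at 24 h was -0.34, 1.14, 1.47 and 1.60 in the cortex and 1.10, 1.42, 1.29 and 1.18 in the striatum, in the order of replicates 1 to 4. Arrays of a group all had one position within their codes, so position and group cannot be told apart either.

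**Figure D2:**
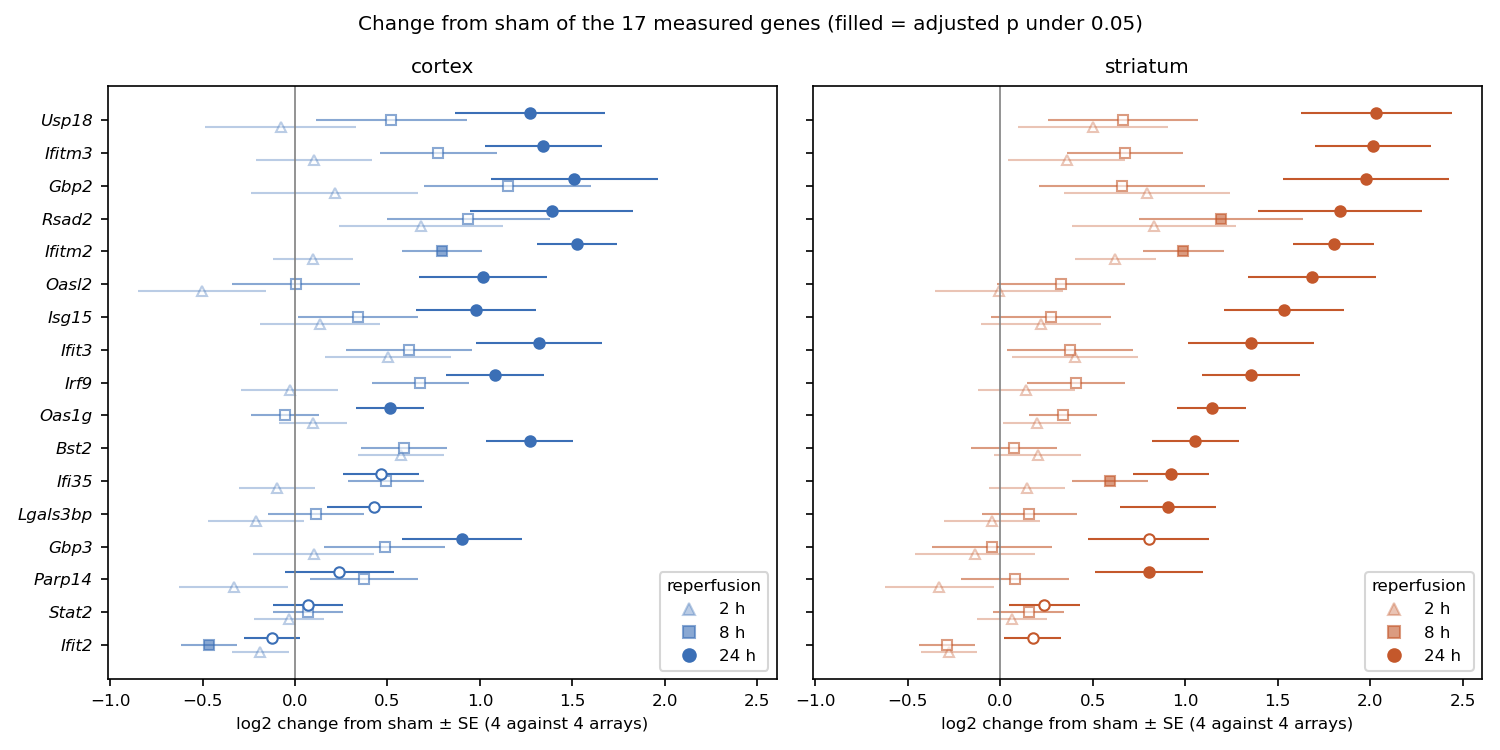
Log2 change from sham of the 17 measured genes in cortex (left) and striatum (right), with the standard error of the model as bars; triangles are 2 h, squares 8 h and circles 24 h, and filled symbols passed an adjusted p of 0.05. At 24 h 12 symbols are filled in the cortex and 14 in the striatum, and at 2 h none is filled in either region.

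Usp18, the protease that removes Isg15 from proteins and silences the type I receptor, was at background in every sham array and rose in both regions at 24 h. Its cortex signals were 5.29, 5.12, 5.20 and 5.21 in sham, 5.01, 5.60, 5.05 and 4.84 at 2 h, 5.92, 5.52, 6.65 and 4.82 at 8 h and 4.87, 6.53, 7.61 and 6.89 at 24 h, in the order of replicates 1 to 4. The probe was detected on no sham or 2 h array of the cortex, and at 24 h it was detected on all but replicate 1. In the striatum it read 5.51, 5.01, 5.0 and 5.31 in sham, 5.99, 5.35, 5.84 and 5.64 at 2 h, 5.19, 6.12, 6.97 and 5.20 at 8 h and 7.52, 7.18, 7.62 and 6.63 at 24 h. All 4 striatum 24 h arrays lay above the highest sham array, which itself was not above background. The change at 24 h was 2.03 ± 0.41 in the striatum (adjusted p = 0.000437) and 1.27 ± 0.41 in the cortex (adjusted p = 0.0172). Since sham was at background, these correspond to at least 2.98-fold and at least 1.62-fold, where each sham array was set to the lowest detected signal on it or its own signal, whichever was higher. The cortex change was 1.80 without cortex 24 h replicate 1, and the call was lost without replicate 3, at 0.89, or without replicate 4, at 1.13 (adjusted p up to 0.0979). The second detected probe for Usp18 changed by 1.78 in the striatum and 1.21 in the cortex.

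Irf9, the DNA-binding subunit of the complex that holds Stat2, was detected on all 32 arrays. In the cortex its signals were 6.55, 6.45, 6.37 and 6.12 in sham, 6.36, 6.49, 6.14 and 6.39 at 2 h, 7.60, 6.96, 7.34 and 6.30 at 8 h and 6.43, 7.80, 7.90 and 7.68 at 24 h. Replicate 1 at 24 h lay among the sham values, and the other 3 lay more than 1 log2 unit above them. The striatum gave 6.86, 6.52, 6.64 and 6.54 in sham, 6.63, 6.77, 6.96 and 6.76 at 2 h, 6.90, 7.29, 7.67 and 6.32 at 8 h and 7.96, 8.30, 7.99 and 7.72 at 24 h, and here every 24 h array was above every earlier array. Irf9 rose by 1.36 ± 0.26 in the striatum (2.56-fold, adjusted p = 0.000343) and by 1.08 ± 0.26 in the cortex (2.12-fold, adjusted p = 0.00257), and both calls held under all 16 alternatives. Its second probe changed by 1.43 and 1.39.

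Stat2, the partner of Irf9 that carries the activation domain of the complex, did not pass at any time. Its signals were close to background, with 5.58, 5.91, 5.73 and 5.79 in cortex sham, 5.71, 5.38, 5.98 and 5.80 at 2 h, 6.31, 5.85, 5.36 and 5.78 at 8 h and 5.65, 5.73, 5.75 and 6.16 at 24 h. The striatum had 5.60, 5.88, 5.43 and 5.53 in sham, 5.37, 5.95, 5.71 and 5.66 at 2 h, 6.11, 5.64, 5.88 and 5.42 at 8 h and 5.58, 6.44, 5.49 and 5.87 at 24 h. The groups overlapped throughout, and the 24 h changes were 0.07 ± 0.19 in the cortex and 0.24 ± 0.19 in the striatum (adjusted p = 0.815 and 0.365). The probe was detected on 13 of 32 arrays, so a change of low signals may be understated. Irf7, the factor that amplifies type I interferon production, was detected on no array.

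The interferon-induced proteins with tetratricopeptide repeats bind foreign RNA, and their genes Ifit1, Ifit2 and Ifit3 lie on chromosome 19. Ifit3 was detected on all arrays, with cortex signals of 7.72, 7.79, 7.52 and 7.73 in sham, 8.32, 8.27, 8.21 and 7.99 at 2 h, 8.29, 8.29, 9.11 and 7.53 at 8 h and 7.77, 9.05, 9.80 and 9.42 at 24 h. Already at 2 h all cortex arrays were above the sham arrays, but the change of 0.50 ± 0.34 did not pass (adjusted p = 0.408). In the striatum Ifit3 measured 8.73, 8.22, 8.30 and 8.10 in sham, 8.79, 8.33, 8.97 and 8.89 at 2 h, 8.61, 8.87, 9.63 and 7.75 at 8 h and 9.87, 9.58, 10.15 and 9.16 at 24 h. At 24 h it was 1.32 ± 0.34 above sham in the cortex and 1.36 ± 0.34 in the striatum (adjusted p = 0.00406 and 0.00333). Its 2 other probes changed by 1.06 and 1.09 in the cortex and by 0.99 and 0.83 in the striatum, the last of which did not pass (adjusted p = 0.0922).

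Ifit2 did not rise at any time. It fell in the cortex at 8 h by 0.47 on the log2 scale (SE 0.15, adjusted p = 0.0314), from 7.07, 7.16, 6.94 and 6.95 in sham to 6.78, 6.54, 6.34 and 6.59, and the groups did not overlap. That call was lost in 5 of 16 alternatives, with adjusted p up to 0.109. At 24 h Ifit2 differed from sham by -0.13 ± 0.15 in the cortex and 0.17 ± 0.15 in the striatum and passed in neither. Its second probe gave -0.34 and -0.33 at 24 h, so the probes differ in sign in the striatum. At 8 h the second probe fell by 0.60 on the log2 scale in each region when all probes were tested (adjusted p = 0.00973 in the cortex and 0.0068 in the striatum), while the probe used here stood at -0.29 in the striatum and did not pass (adjusted p = 0.168). Ifit1 was detected on no array. The probe sequences were not compared with the near-identical members of these families, and signal shared between paralogs, such as the Ifitm, Oas1 or Ifit3 genes, was not tested.

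Isg15 encodes a ubiquitin-like protein that is joined to other proteins during an interferon response. Cortex arrays gave 6.32, 6.46, 6.23 and 6.16 in sham, 6.54, 6.56, 6.38 and 6.21 at 2 h, 6.66, 6.83, 7.07 and 5.95 at 8 h and 5.97, 7.38, 8.09 and 7.63 at 24 h. Replicate 1 at 24 h was below all sham arrays, and the other 3 were above them. Striatum arrays gave 6.05, 6.06, 5.89 and 5.95 in sham, 6.32, 5.84, 6.12 and 6.53 at 2 h, 5.84, 6.76, 7.06 and 5.37 at 8 h and 7.71, 7.87, 7.51 and 6.99 at 24 h. The 24 h striatum arrays were clear of sham, by 1.54 ± 0.32 (2.90-fold, adjusted p = 0.000743). In the cortex the change was 0.98 ± 0.32 (1.97-fold, adjusted p = 0.0211), and the call was lost when any one of replicates 2, 3 and 4 was left out (adjusted p up to 0.108, and a change of 0.70 without replicate 3).

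Rsad2 encodes viperin, which makes a nucleotide that stops viral polymerases. It was detected on no sham array of either region. The cortex signals were 5.24, 5.28, 5.25 and 5.06 in sham, 5.85, 6.20, 6.21 and 5.30 at 2 h, 5.98, 6.66, 6.97 and 4.97 at 8 h and 4.91, 7.07, 7.34 and 7.07 at 24 h. The striatal signals were 5.48, 5.42, 5.28 and 5.11 in sham, 6.37, 5.62, 6.57 and 6.04 at 2 h, 5.74, 6.74, 7.95 and 5.64 at 8 h and 7.38, 7.13, 7.31 and 6.82 at 24 h. All 2 h arrays of both regions were above their sham arrays, without passing the test (changes of 0.68 ± 0.44 and 0.83 ± 0.44, adjusted p = 0.385 and 0.254). Rsad2 passed in the striatum at 8 h, by 1.19 ± 0.44 (at least 1.80-fold, adjusted p = 0.0466), and this call was lost in 7 of 16 alternatives. Without striatum 8 h replicate 3 the change was 0.72 (adjusted p = 0.244). At 24 h the changes were 1.84 ± 0.44 in the striatum (at least 2.81-fold, adjusted p = 0.00238) and 1.39 ± 0.44 in the cortex (at least 1.76-fold, adjusted p = 0.0167). Without cortex 24 h replicate 1 the cortex change was 1.95, and the call was lost without any one of replicates 2, 3 and 4 (adjusted p up to 0.0676).

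The oligoadenylate synthetases sense double-stranded RNA, and Oasl2 is a relative that binds it. Oasl2 had cortex signals of 5.85, 6.11, 5.56 and 5.82 in sham, 5.24, 5.47, 5.44 and 5.18 at 2 h, 5.85, 5.74, 6.73 and 5.03 at 8 h and 5.46, 6.57, 7.95 and 7.42 at 24 h. At 2 h it was detected on no cortex array, and all 4 lay under the sham arrays, by -0.50 ± 0.35 without passing. The striatum signals were 6.42, 6.0, 6.39 and 6.23 in sham, 6.42, 5.99, 6.26 and 6.35 at 2 h, 6.37, 6.34, 7.43 and 6.20 at 8 h and 7.89, 8.03, 8.33 and 7.52 at 24 h. At 24 h Oasl2 was up by 1.68 ± 0.35 in the striatum (3.21-fold, adjusted p = 0.000568) and by 1.02 ± 0.35 in the cortex (2.02-fold, adjusted p = 0.0246). The cortex call was lost in 5 of 16 alternatives, with adjusted p up to 0.145 and a change of 0.65 without cortex 24 h replicate 3. Oas1g was at background in both sham groups and rose at 24 h by 1.14 ± 0.18 in the striatum (at least 1.62-fold) and by 0.52 ± 0.18 in the cortex (at least 1.11-fold, detected on 3 of 4 arrays). Since it was detected on 9 arrays in all, it passed the filter largely through the groups where it was high. Oas1a, Oas2 and Oasl1 were detected on no array.

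Ifitm2 and Ifitm3, which sit in membranes and block the entry of viruses, were detected on all arrays. Ifitm2 measured 8.26, 8.25, 8.28 and 8.05 in cortex sham, 8.15, 8.14, 8.40 and 8.55 at 2 h, 9.04, 9.28, 8.79 and 8.91 at 8 h and 8.87, 10.48, 9.53 and 10.06 at 24 h. In striatum sham it was 8.05, 8.23, 8.06 and 8.29, followed by 8.61, 8.69, 8.78 and 9.03 at 2 h, 9.34, 9.03, 9.23 and 8.99 at 8 h and 9.59, 10.59, 9.64 and 10.01 at 24 h. It was the one gene of the 17 that passed in both regions at 8 h, where all arrays, also the replicates 4 that were low for other genes, lay above sham. The 8 h changes were 0.79 ± 0.22 in the cortex and 0.99 ± 0.22 in the striatum (adjusted p = 0.0117 and 0.00167), and at 24 h they were 1.52 ± 0.22 (2.88-fold) and 1.80 ± 0.22 (3.49-fold, adjusted p = 1.19e-05 and 1.34e-06). All 4 calls held under the 16 alternatives.

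Ifitm3 has been studied most for its restriction of influenza virus. Its cortex arrays read 9.07, 9.49, 9.02 and 8.55 in sham, 9.11, 9.20, 9.20 and 9.03 at 2 h, 10.14, 10.16, 9.83 and 9.09 at 8 h and 9.07, 11.20, 10.49 and 10.75 at 24 h. The striatum arrays read 9.14, 8.92, 9.03 and 8.78 in sham, 9.33, 9.16, 9.31 and 9.51 at 2 h, 9.76, 9.86, 10.08 and 8.87 at 8 h and 10.57, 11.71, 10.70 and 10.95 at 24 h. Cortex 24 h replicate 1 stayed within the sham range, so the cortex groups overlapped. The 24 h changes were 2.01 ± 0.31 in the striatum (4.04-fold, adjusted p = 3.4e-05) and 1.34 ± 0.31 in the cortex (2.54-fold, adjusted p = 0.00186). Ifitm1, on the same chromosome 7, was detected on no array.

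Guanylate-binding proteins are large GTPases that attack the membranes around pathogens and answer interferon gamma as well as type I interferon. Gbp2 had cortex signals of 7.0, 6.59, 6.73 and 6.12 in sham, 6.34, 6.72, 7.12 and 7.12 at 2 h, 8.66, 8.07, 8.12 and 6.18 at 8 h and 6.24, 8.97, 8.44 and 8.81 at 24 h. At 8 h 3 cortex arrays were more than 1 log2 unit above the highest sham array and replicate 4 was within sham, and the change of 1.15 ± 0.45 did not pass (adjusted p = 0.069). In the striatum the signals were 7.03, 6.88, 7.23 and 6.40 in sham, 7.61, 7.27, 7.66 and 8.17 at 2 h, 7.51, 7.85, 8.16 and 6.66 at 8 h and 8.79, 9.09, 8.53 and 9.04 at 24 h. Gbp2 rose at 24 h by 1.98 ± 0.45 in the striatum (3.93-fold, adjusted p = 0.00147) and by 1.51 ± 0.45 in the cortex (2.85-fold, adjusted p = 0.011). Without cortex 24 h replicate 1 the cortex change was 2.14, and without replicate 2 or 4 the call was lost (adjusted p up to 0.0571). Gbp3, which the array lists under another member's name, rose in the cortex by 0.90 ± 0.33 (adjusted p = 0.0334, lost in 8 of 16 alternatives) and did not pass in the striatum at 0.80 ± 0.33 (adjusted p = 0.0614). Its second probe passed in neither region, with 0.35 and 0.60.

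**Figure D3:**
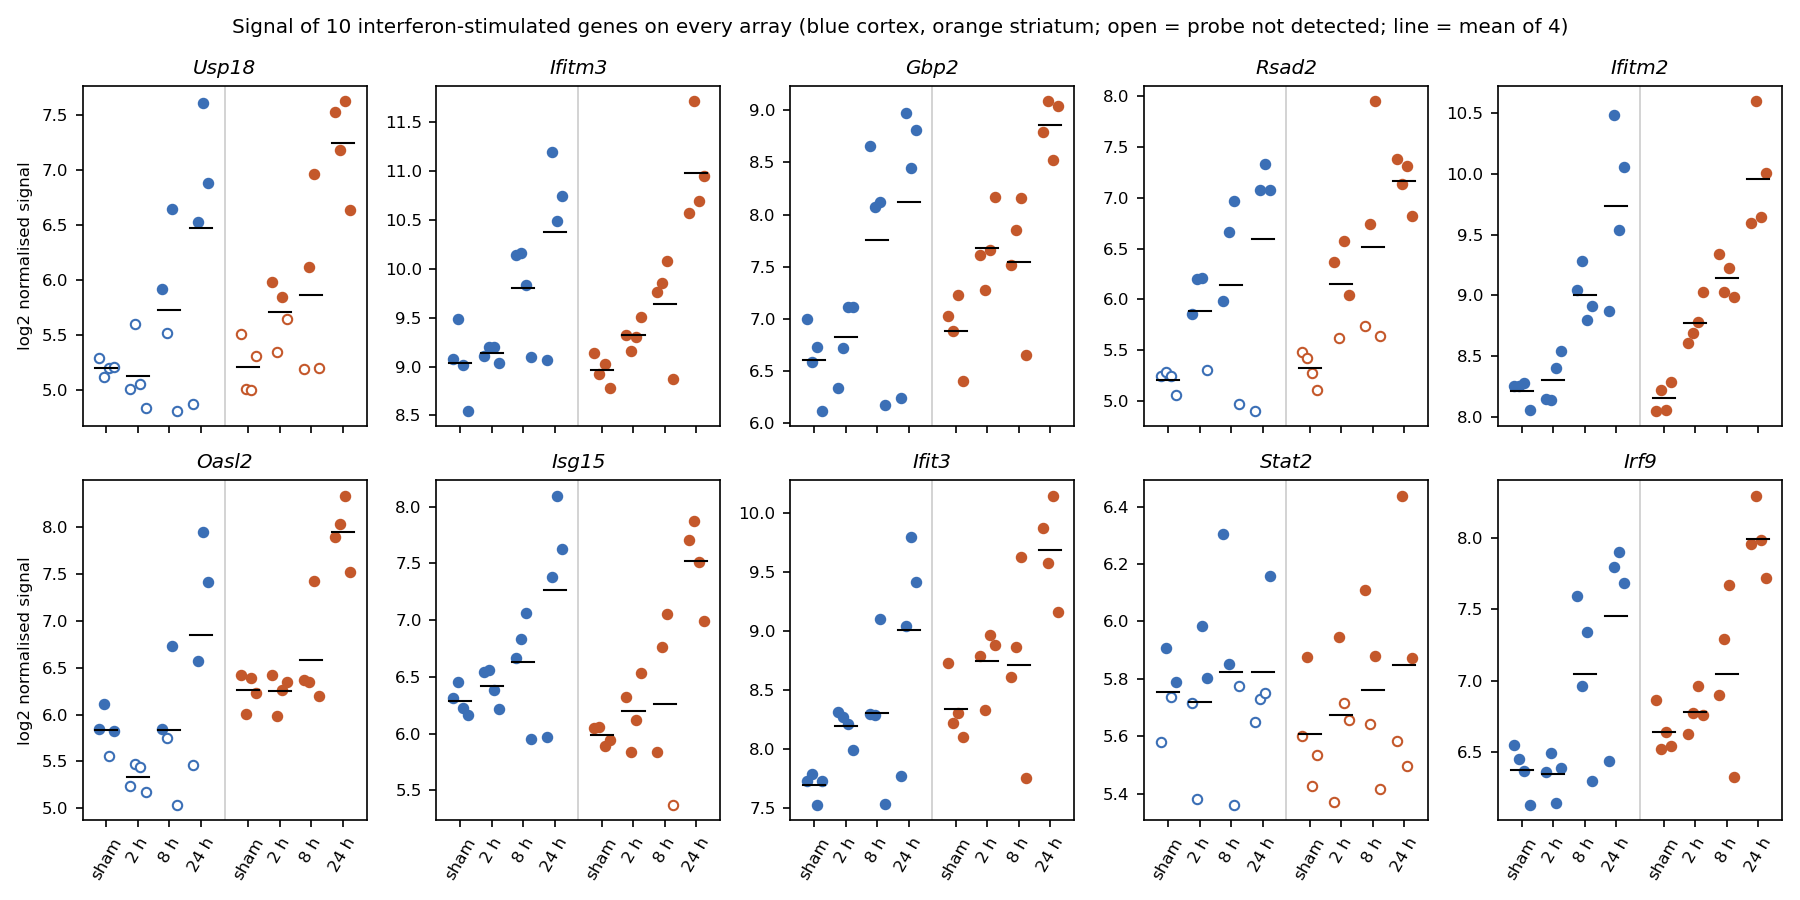
Log2 signal of 10 genes on every array, cortex in blue and striatum in orange, with sham, 2, 8 and 24 h of reperfusion along the axis; open circles are arrays where the probe was not detected and lines are means of 4 arrays. All 4 striatum 24 h arrays lie above sham for 9 of the genes and Stat2 is the exception, and 1 cortex 24 h array lies within or below the sham values for most.

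Bst2 encodes tetherin, which holds budding virus at the cell surface. It was at background in cortex sham and rose there at 24 h by 1.27 ± 0.23 (at least 1.78-fold, detected on 3 of 4 arrays, adjusted p = 0.000192), and in the striatum by 1.05 ± 0.23 (adjusted p = 0.00117), where 2 of 4 sham arrays and all 24 h arrays detected it and no fold is given. Ifi35 passed in the striatum at 8 h by 0.60 ± 0.21 and at 24 h by 0.92 ± 0.21 (at least 1.19-fold, adjusted p = 0.0012). It was detected on 5 arrays in all, 1 of them at 8 h in the striatum, where no fold is given, and the 8 h call was lost in 6 of 15 alternatives. Lgals3bp, a secreted galectin-binding glycoprotein, rose in the striatum by 0.91 ± 0.26 (1.88-fold, adjusted p = 0.00837). So did Parp14, an ADP-ribosyltransferase, by 0.80 ± 0.29 (adjusted p = 0.037, detected on 2 of 4 sham arrays, lost in 7 of 16 alternatives). In the cortex Ifi35, Lgals3bp and Parp14 differed from sham by 0.46, 0.43 and 0.24 and did not pass.

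Of the other genes on the list, Isg20, Ifih1 and Ddx58 (sensors of viral RNA, in the case of the latter pair), Trim25 (the ubiquitin ligase that acts on Ddx58), Ifi44, Parp9, Xaf1 and Mx1 were detected on no array, and Mx2 on 1. RefSeq annotates Mx1 and Mx2 of the reference mouse strain as transcribed pseudogenes. With Ifit1, Irf7, Oasl1, Oas1a, Oas2 and Ifitm1, these make up the 15 genes found but not measured: signal not above background on this array does not show that a gene was silent. Because 15 genes had no usable signal and some others, Usp18, Rsad2, Oas1g and Ifi35 among them, passed through the groups where they were high, the counts above describe the measured genes and not the list.

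At 2 h of reperfusion 0 of the 17 genes passed in either region, where 2.21% of all genes rose and 2.45% fell in the cortex and 3.49% rose and 2.81% fell in the striatum. By limma's unadjusted p under 0.05, 1 of the 17 differed in each region. Over all 9475 genes tested, 2023 did so in the cortex and 2259 in the striatum. No alternative or array left out made a call among the 13 genes found by name. The largest striatal changes were those of Rsad2, Gbp2 (0.79 ± 0.45) and Ifitm2 (0.62 ± 0.22, adjusted p = 0.0809), each with all 4 arrays above sham, and all 4 arrays were also above sham for Ifitm3, at 0.36 ± 0.31. In the cortex Bst2 had all 4 arrays above sham at 0.57 ± 0.23 (adjusted p = 0.146), with Rsad2 and Ifit3 above and Oasl2 below as given. This made 4 of the 17 genes with no overlap in each region, where 19.0% of all genes in the cortex and 18.9% in the striatum had none.

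At 8 h in the cortex 1 of the 13 genes found by name rose (Ifitm2), 1 fell (Ifit2) and 0 of the 4 found by accession passed, where 9.58% of all genes rose and 10.6% fell. Leaving out cortex 8 h replicate 4 brought the count of calls to 5, with 2 of the 4 found by accession, and without cortex sham replicate 1 or 2, or cortex 8 h replicate 2 or 3, it was 1. The median change of the 17 genes was 0.49 with every array, 0.71 without cortex 8 h replicate 4 and 0.31 without replicate 3. Within the array codes it was 0.63, 0.45, 0.84 and -0.09. In the striatum at 8 h 2 of the 13 rose (Ifitm2 and Ifi35), with Rsad2 of the 4, where 12.4% of all genes rose and 12.8% fell. That count was 3 without striatum 8 h replicate 4, and 1 when striatum sham replicate 1 or 2, or striatum 8 h replicate 2 or 3, was left out. The median change was 0.34, between 0.11 and 0.57 over the arrays left out, and -0.12, 0.65, 0.95 and -0.11 within the array codes.

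Successive times were also compared. From 2 to 8 h 0 of the 17 genes passed in either region (cortex 1.46% of all genes higher and 1.48% lower, striatum 0.718% higher and 0.813% lower). By limma's unadjusted p under 0.05 the count was 6 in the cortex and 1 in the striatum. Over all 9475 genes that count was 1865 in the cortex and 1635 in the striatum. The largest changes in the cortex were those of Gbp2 (0.93), Irf9 (0.71), Parp14 (0.70), Ifitm2 (0.70) and Ifitm3 (0.67). Without cortex 8 h replicate 4, 3 of the 13 genes found by name passed. In the striatum the largest were those of Ifi35 (0.45), Parp14 (0.41), Ifitm2 (0.37), Rsad2 (0.36) and Oasl2 (0.33).

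From 8 to 24 h in the striatum, 6 of the 13 genes found by name rose further (Usp18, Oasl2, Ifitm3, Bst2, Ifitm2 and Oas1g), with Isg15 and Irf9 of the 4, and 0 fell, where 4.69% of all genes rose and 3.19% fell. The 5 largest of all 17 were Usp18 at 1.37 ± 0.41, Oasl2 at 1.36 ± 0.35, Ifitm3 at 1.34 ± 0.31, Gbp2 at 1.32 ± 0.45, which did not pass (adjusted p = 0.0694), and Isg15 at 1.26 ± 0.32. The count of 6 was 9 without striatum 8 h replicate 3, 3 without striatum 8 h replicate 4 and 2 without striatum 24 h replicate 2; that of the 4 found by accession was 3 without striatum 8 h replicate 3, 1 without its replicate 1 and 0 without its replicate 4 or striatum 24 h replicate 2. In the cortex 1 of the 13 genes, Ifitm2, rose from 8 to 24 h by 0.73 ± 0.22 (adjusted p = 0.0362), and 0 of the 4, where 3.99% of all genes rose and 4.12% fell. Oasl2 (1.01), Usp18 (0.75), Ifit3 (0.70) and Bst2 (0.68) had changes of like size that did not pass. With the array code as a block 3 of the 13 passed. Without cortex 24 h replicate 1, 7 of the 13 and 3 of the 4 passed, and the count was 0 without cortex 8 h replicate 1 or 4 or cortex 24 h replicate 2, 3 or 4.

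The response at 24 h was larger in the striatum than in the cortex for 15 of the 17 genes, where it was larger for 50.8% of all genes. That count includes cortex 24 h replicate 1, which was lowest of its group for 16 of the 17. Yet 0 of the 17 passed the test of that difference, the interaction of region and time. Over all genes 0.0211% passed as larger and 0.0422% as smaller in the striatum. By limma's unadjusted p under 0.05 the count was 1 of the 17, and 815 of all 9475 genes. The largest differences, striatal minus cortical change, were those of Usp18 (0.76 ± 0.57), Ifitm3 (0.67 ± 0.44), Oasl2 (0.67 ± 0.49), Oas1g (0.63 ± 0.26) and Parp14 (0.56 ± 0.41). The median difference was 0.46 with every array and 0.12 without cortex 24 h replicate 1. At 2 and 8 h 0 of the 17 genes, and 0.0% of all genes, passed the same test. By limma's unadjusted p under 0.05, 0 of the 17 differed at either time. Over all 9475 genes that count was 607 at 2 h and 748 at 8 h. The largest differences were 0.58 for Usp18 and for Gbp2, 0.52 for Ifitm2, 0.50 for Oasl2 and -0.37 for Bst2 at 2 h, and -0.53 for Gbp3, -0.52 for Bst2, -0.49 for Gbp2, 0.39 for Oas1g and 0.32 for Oasl2 at 8 h.

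The sham groups of both regions were compared as well. Of the 17 genes 0 passed between striatum sham and cortex sham, at limma's adjusted p or at an unadjusted p under 0.05. By the adjusted p 17.4% of all genes were higher in the striatum and 16.6% lower. By the unadjusted p 4086 of all 9475 genes differed. Ifit3 was 0.65 ± 0.34 higher in the striatum, with no overlap of arrays, and did not pass (adjusted p = 0.148). The next in size were Oasl2 (0.43), Isg15 (-0.30), Bst2 (0.29) and Gbp2 (0.28). Isg15 also had no overlap, with 6.16 to 6.46 in cortex sham and 5.89 to 6.06 in striatum sham. The share of all genes with no overlap was not computed for this comparison.

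The rest of the interferon pathway was read from lists beside the 33 genes. Of 13 interferon genes on the array, 12 were detected on no array, Ifnb1 and Ifng among them, and Ifne, the one measured, passed at no time. Of 10 measured receptor and signalling genes, 3 rose and 0 fell at 24 h in each region, where over all genes 15.7% rose and 17.6% fell in the cortex and 14.7% rose and 16.2% fell in the striatum. Stat3, which interleukin 6 and related cytokines activate, rose by 1.42 ± 0.21 in the cortex and 1.55 ± 0.21 in the striatum. Ifngr1, a chain of the interferon gamma receptor, rose in the cortex by 0.43 ± 0.15, and Il10rb in the striatum by 0.92 ± 0.18 (at least 1.48-fold). Ifnar2, a chain of the type I receptor, passed at no time, and Ifnar1 was detected on no array.

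Among 5 measured interferon regulatory factors, 2 rose in the cortex (15.7% of all genes) and 4 in the striatum (14.7% of all genes) at 24 h, and 0 fell. Irf1, a factor that both interferon gamma and cytokines of inflammation induce, passed already at 2 h in the striatum, with 0.54 ± 0.16; its changes were 0.57 ± 0.16 in the cortex at 8 h and 0.79 ± 0.16 and 1.03 ± 0.16 at 24 h. Irf3 rose at 24 h by 0.63 ± 0.14 and 0.53 ± 0.14, and Irf5 in the striatum by 0.59 ± 0.20 (at least 1.10-fold). Irf8, a factor of microglia and other myeloid cells, did not pass at 24 h, at -0.29 ± 0.19 and 0.24 ± 0.19.

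Of 8 measured nucleic acid sensors and adaptors, 3 rose and 1 fell in the cortex and 4 rose and 1 fell in the striatum at 24 h, beside all-gene shares of 15.7% and 17.6% in the cortex and 14.7% and 16.2% in the striatum. Myd88, the adaptor of most Toll-like receptors, rose by 1.52 ± 0.23 and 1.81 ± 0.23, Tlr13, a receptor for bacterial RNA, by 1.36 ± 0.31 and 1.73 ± 0.31 (at least 1.81-fold and 2.36-fold), and Eif2ak2, the kinase that double-stranded RNA activates, by 1.00 ± 0.15 and 1.09 ± 0.15. The adaptor Traf3 fell, at -0.88 ± 0.15 and -0.59 ± 0.15. Of 11 measured inhibitors of interferon signalling, 2 rose and 2 fell in the cortex, near the shares over all genes of 15.7% and 17.6%, and 4 rose and 3 fell in the striatum, where those shares were 14.7% and 16.2%. Socs3, an inhibitor of Jak kinases, rose most, by 3.05 ± 0.53 and 4.54 ± 0.53 (at least 18.1-fold in the striatum), and it had risen by 2.71 ± 0.53 and 3.71 ± 0.53 at 2 h, when 0 of the 17 measured genes had. The phosphatase Ptpn1 rose at 24 h by 0.92 ± 0.25 and 1.40 ± 0.25, and Ptpn6 in the striatum by 1.22 ± 0.23.

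Another list held 63 further interferon-induced genes, of which 25 were measured. Of the rest, 28 were detected on no array. In the cortex 0 changed at 2 h (2.21% of all genes rose and 2.45% fell), 8 rose and 2 fell at 8 h (9.58% and 10.6%), and 14 rose and 0 fell at 24 h (15.7% and 17.6%). In the striatum 1 rose at 2 h (3.49% of all genes), 4 rose at 8 h (12.4%) and 18 rose at 24 h (14.7%), and 0 fell, with a median change of 0.61 against 0.47 in the cortex. The chemokine Cxcl10 was at background in sham and rose by 1.95 ± 0.47 and 2.42 ± 0.47 (at least 1.75-fold and 2.62-fold). The checkpoint ligand Cd274 rose by 1.26 ± 0.25 (at least 2.05-fold) and 1.61 ± 0.25, the peptide transporter Tap2 by 1.29 ± 0.15 and 1.01 ± 0.15, and the immunity-related GTPase Igtp by 1.18 ± 0.27 and 1.51 ± 0.27. Genes at background in sham, such as Cxcl10, could hardly be called lower than sham. The counts therefore describe the measured genes and not the list. Many of these genes also answer interferon gamma or other cytokines.

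Marker genes of other cells moved with some of these results. Of 7 measured neutrophil and monocyte markers, 5 rose in the cortex and 6 in the striatum at 24 h, where 15.7% and 14.7% of all genes rose. Their summed linear signal was 329.8 to 628 in cortex sham, and 448, 7187, 724 and 5823 on cortex 24 h replicates 1 to 4. Replicate 1, low for the interferon-stimulated genes, was also at sham level for these markers, but replicate 3, the highest array of the group for 10 of the 17 genes, had 724, close to the highest sham array. In the striatum the sum was 394 to 493 in sham and 1308, 4425, 1257 and 4678 at 24 h, while the median change of the 17 genes on the same arrays was 1.32, 1.44, 1.35 and 1.09. Ccr2, Mmp8 and Ms4a4c were detected on no array. Of 9 measured endothelial markers 7 rose at 24 h in each region, and their sum was 3745 on cortex 24 h replicate 1 against 5037 to 6626 on the others and 3132 to 3470 in cortex sham. Of 13 measured microglia markers, 3 rose and 6 fell in the cortex and 5 rose and 5 fell in the striatum at 24 h, where 17.6% and 16.2% of all genes fell. Their summed signal was 4057 to 4346 in cortex sham and 3346 on cortex 24 h replicate 1, against 4647 to 5459 on the other arrays of that group. In the striatum it was 3556 to 3764 in sham and 4263 to 7271 at 24 h. Of 16 lymphocyte and plasmacytoid dendritic cell markers, 14 were detected on no array. Of 9 measured astrocyte markers, 2 rose and 1 fell in the cortex and 1 rose and 3 fell in the striatum. Of 8 measured striatal neuron markers, 0 rose at 24 h in either region, and 4 fell in the cortex and 6 in the striatum. Of 9 measured cortical neuron markers, 0 rose and 3 fell in the cortex at 24 h, and 1 rose and 1 fell in the striatum. The sum of the cortical neuron markers is not given here for reperfusion arrays. The summed signal of the 8 striatal neuron markers was highest of its group on each of the 3 arrays lowest for the interferon-stimulated genes. It was 9652 on striatum 8 h replicate 4 against 2277 to 3779 on the others, 5771 on cortex 8 h replicate 4 against 2550 to 5058, and 5816 on cortex 24 h replicate 1 against 2613 to 3813. The striatal neuron sum is not given here for other arrays that were lowest of their group for many of the 17 genes. They include striatum 2 h replicate 2 (lowest for 11) and sham replicate 4 of each region (lowest for 10). The 3 arrays therefore do not show whether the sum and these genes move together over all arrays. The part of any of these cell types in the changes of the interferon-stimulated genes was not tested.

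**Figure D4:**
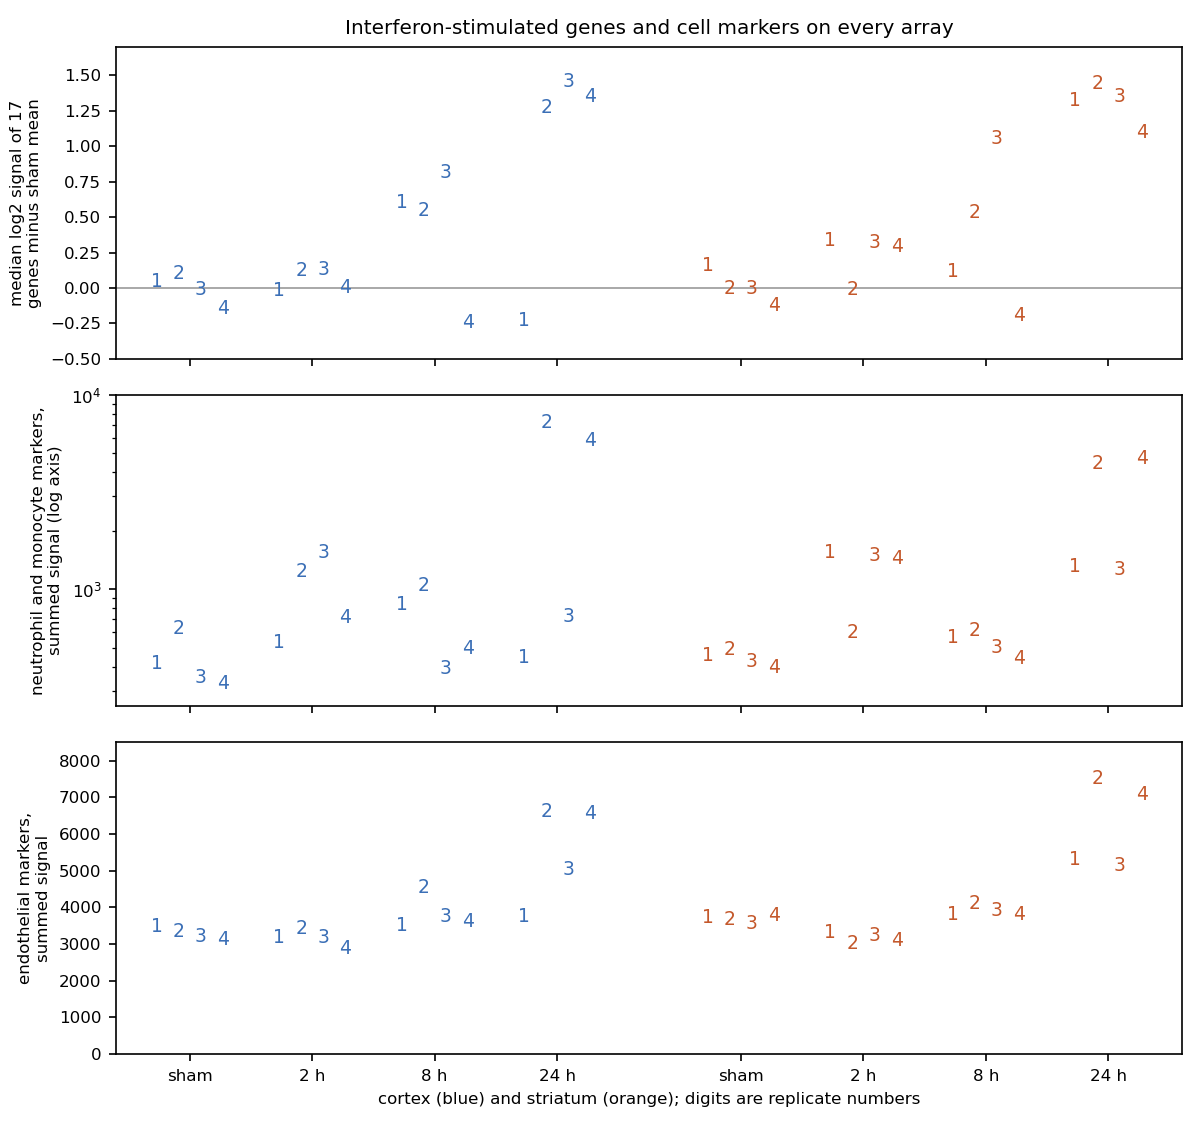
Median log2 signal of the 17 measured genes relative to the sham mean of the region (top), summed linear signal of 7 neutrophil and monocyte markers on a log axis (middle) and of 9 endothelial markers (bottom) on each array, with digits for replicate numbers. Cortex 24 h replicate 1 is at sham level at the top and in the middle, and replicate 3 is high at the top and near sham in the middle.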

How the data were processed

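RNA of 8 groups of 4 samples was hybridised to Illumina mouse expression bead arrays. The deposited profiles hold 1 linear signal intensity per probe that was not normalized, per the file headers, and a detection fraction, which the authors' software gives as 1 minus the detection p-value. The deposited processed values are on the scale of a linear ratio, with the region's mean sham signal as 1, as a comparison with the profiles showed; these were used as an alternative only. Replicate numbers in both series tables run in mirrored order (25697 of 25697 probe rows match the profiles that way and 0 the other way), so replicates were taken from the array codes in the sample descriptions.

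The intensities were background corrected and quantile normalised with neqc (limma 3.58.1, R 4.3.3; offset 16), which gave log2 values computed here from the deposited intensities. Probes detected at p under 0.01 on at least 4 arrays were kept (12758 of 25697), and the probe with the highest mean stood for a gene, which left 9475 genes. A model with 1 mean per group was fitted with lmFit and eBayes and p-values were adjusted by Benjamini-Hochberg in each comparison. Probes were named by RefSeq accession, symbol or synonym. Array number and signal over background limit the precision, and sampling depth does not apply.

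The genes, lists and tests were chosen with earlier results of these data known. Values on every array are given for the 8 genes with the largest change at 24 h in either region and for Stat2, Irf9 and Usp18; of the other lists, up to 3 genes with the largest change at 24 h and Irf1, Irf8, Cxcl10 and Gpx1 are named. Ifnar1, Ifnar2 and the undetected marker genes were named after their values were seen. Alternatives were the array code as a block, no background correction, 75th percentile scaling, the deposited processed values, no detection filter, a filter that asks for a whole group detected, single-region fits, all detected probes, and each array left out. For samples labelled with the same array code in a region, the correlation of their deviations from the group means ran from -0.27 to 0.35. The median within a code lay between 0.02 and 0.18. For arrays of different groups and different codes the median was -0.04, with a range of -0.52 to 0.53. The labels name no pairs, and the main model used none.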

Additional observations from a re-analysis of the deposited data

Results flagged for a closer look

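Of 80 groups of 4 arrays looked at, 4 held an array far from the others, and chance alone gives such an array in about 5% of groups. Rsad2 was 4.91, not detected, on cortex 24 h replicate 1, against 7.07 to 7.34 on the other arrays of that group. Irf9 was 6.43 on the same array against 7.68 to 7.90. Both lie on the array that was lowest of its group for 16 of the 17 measured genes. Oasl2 was 7.43 on striatum 8 h replicate 3, the array that was highest of its group for 14 genes, against 6.20 to 6.37 on the others. Ifitm2 was 8.05 on cortex sham replicate 4, with 8.25 to 8.28 on the other sham arrays, a narrow range.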

How the results depend on the processing

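Of 31 calls of single genes against sham, 20 held under every alternative, 0 turned their direction, and 53 calls were lost over all alternatives together: 44 with an array left out, 7 with no detection filter and 2 with each region fitted alone. The calls that were lost under at least one are those of Ifit2 in the cortex at 8 h, Rsad2, Isg15, Gbp2, Gbp3, Oas1g, Oasl2 and Usp18 in the cortex at 24 h, Rsad2 and Ifi35 in the striatum at 8 h, and Parp14 in the striatum at 24 h. Counts below are of the 13 genes found by name. For cortex 24 h against 8 h the count of 1 was 3 with the array code as a replicate block, 2 with no background correction, with the processed values and with detection on all 4 arrays of a group, and 0 with no detection filter and with each region alone. For cortex 8 h against sham the count of 2 was 4 with 75th percentile scaling and 1 with no detection filter. The count for the striatum at 8 h went from 2 to 1 with no detection filter and with detection on all 4 arrays of a group, and that for cortex 8 h against 2 h from 0 to 1 with the processed values. With each array left out in turn, the count ran from 1 to 5 for cortex 8 h, 4 to 10 for cortex 24 h, 1 to 3 for striatum 8 h, 10 to 11 for striatum 24 h, 0 to 3 for cortex 8 h against 2 h, 0 to 7 for cortex 24 h against 8 h and 2 to 9 for striatum 24 h against 8 h; the other counts were 0 throughout. Of the 4 genes found by accession it ran from 1 to 4 for cortex 24 h, 0 to 2 for cortex 8 h, 0 to 1 for striatum 8 h and for cortex 8 h against 2 h, and 0 to 3 for 24 h against 8 h in each region. The replicate block changed no other count by over 1.5 times. The cause of these shifts was not tested, beyond the fewer arrays or the larger number of genes tested that the alternatives themselves bring. Signal over background is the main limit: 15 of the 32 genes found had no usable signal.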
